A study of Homo sapiens with 60 samples.

Results

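Replication-dependent histone genes encode the histone H1, H2A, H2B, H3 and H4 proteins that package newly copied DNA. The genes lie in clusters on human chromosomes 6 and 1 and carry names such as HIST1H2AC, now H2AC6. Members were the protein-coding rows of the count table with such a name, on those chromosomes, and with at least 10 counts summed over 60 libraries. By this rule there were 62 members among 60675 genes: 4 of class H1, 16 of H2A, 16 of H2B, 14 of H3 and 12 of H4. Of these, 48 lay in the large chromosome 6 cluster HIST1, 11 in HIST2 and 3 in HIST3, both on chromosome 1. The names of 8 further genes met the rule, but these had under 10 counts: the closest, H2BC3, had 6 counts in all, whereas the member with the fewest had 15.4.

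The libraries came from HT29 cells, an established colorectal adenocarcinoma line, 24 h after treatment. The treated groups had 10 µM wortmannin, an inhibitor of phosphoinositide 3-kinase, or a water extract of 1 of 6 medicinal plants. Fresh ginger (Zingiberis Rhizoma Recens), ginger (Zingiberis Rhizoma), Pinelliae Tuber, Scutellariae Radix and Zizyphi Fructus were given at 20, 100 and 500 µg/mL, and Coptidis Rhizoma at 11.6, 58 and 290 µg/mL, called the low, medium and high dose. The vehicle group had DMSO alone, at 0.1% by the sample labels but 2% by the series text, and the files do not settle which. Each of the 20 groups had 3 libraries, and the labels do not say whether they came from separate cultures, so each p-value reflects library-to-library spread only, which may be technical. The sample codes put vehicle and wortmannin each in a set of their own, both gingers in another, Pinelliae with Scutellariae, and Coptidis with Zizyphi. Every contrast with vehicle thus crosses sets, whereas doses of the same extract share a set.

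Transcription of these genes rises as cells enter S phase, under the coactivator NPAT. Their messages typically do not get a poly(A) tail. The nascent RNA is cut just after a short stem-loop, which is held by the stem-loop binding protein SLBP, and the RNA is degraded when DNA synthesis stops. Some histone genes also have a polyadenylation signal further downstream, and longer, polyadenylated forms are known from cells that have stopped dividing or that lack parts of the cutting machinery. In contrast, replication-independent variants such as H3.3 (H3-3A, H3-3B) and H2A.Z are made as ordinary polyadenylated messages.

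The stem-loop could be read in the annotated transcripts of 31 members on the strand of the gene, as the histone stem-loop consensus of 16 letters, in which 5 letters may be any base. The same pattern occurred in 51 of 19684 genes with a protein-coding transcript in GENCODE 29, or 0.259%. The following sites, from members described below, show the 2 arms of the stem and the loop in capitals, with 5 bases on each side. They are shown because the members differ in what lies after this point.

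H2AC6: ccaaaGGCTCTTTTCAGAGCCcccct
H3C6: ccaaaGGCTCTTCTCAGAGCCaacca
H3C14: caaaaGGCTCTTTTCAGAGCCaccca
H3C8: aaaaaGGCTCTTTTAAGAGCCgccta
H4C15: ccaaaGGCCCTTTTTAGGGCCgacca
H4C8: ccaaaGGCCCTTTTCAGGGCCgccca

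The form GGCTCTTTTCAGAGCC was found in 6 H2A, 8 H2B and 3 H3 genes. The H4 genes instead had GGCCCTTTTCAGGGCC (4 genes) or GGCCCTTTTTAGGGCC (3 genes). The annotation gave 4 kinds of transcript model. For 22 members a model ran at least 100 bases past the stem-loop, and 15 of these held the polyadenylation letters AATAAA in the part after it. The model of H2AC6 ran 1114 bases past the stem-loop and that of H3C6 1862 bases. For 9 members the model ended closer to the stem-loop, 6 to 86 bases past it, and 3 of these (H2BC5, H2AC18 and H2AC19) also held AATAAA there. For 28 it was the coding sequence only, and for 3 no model held the motif.

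Together the members had low counts. Their sum was 657 to 2969 counts per library (median 1236.5), or 58.1 CPM on average (CPM being the count scaled to a library total of 1000000), and 25 of the 62 averaged under 0.1 CPM. Library totals were 11.1 to 34.4 M counts (M for 1000000). An earlier analysis of these data set 4 libraries apart from the rest: replicate 1 of vehicle, replicate 1 of low dose fresh ginger, replicate 2 of high dose ginger and replicate 3 of high dose Zizyphi. Their shares of ribosomal protein counts were 6.32 to 8.22%, against 4.95 to 7.24% in the other libraries, so the ranges overlapped. The 7.24% belonged to Coptidis high replicate 1. On axis 2 of a principal component analysis of all tested genes the ranges did not overlap. These 4 libraries had values of 28.8 to 58.2 there, against -11.8 to 9.35 in the others. The labels call the libraries mRNA libraries and name no poly(A) selection. RNAs that lack a poly(A) tail were scarce as well: 15 of them, among them the abundant 7SL RNAs of the signal recognition particle, summed to a median of 16.3 CPM (10.0 to 242 CPM over the libraries). By contrast, H3-3A averaged 508 CPM and the H2A.Z gene H2AZ1 416 CPM. The sums therefore describe the histone RNA that these libraries captured. How far capture differed between members was not tested.

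Counts were concentrated in a few members. H2AC6 alone held 18.6% of the members' counts, H2AC25 9.78%, H4C15 7.55% and H2BC21 7.08%, and 6 members together held 54.8%. Per kb of exon, H2BC12 was the highest at 10.0 CPM per kb, followed by H2AC6 at 6.47 and H2AC25 at 6.32. In class H1 the highest was H1-2, in H2A H2AC6, in H3 H3C8 and in H4 H4C15. The 22 members whose model runs past the stem-loop had a median of 0.686 CPM per kb and held 75.3% of the members' summed CPM. Those annotated as coding sequence only had a median of 0.0942 CPM per kb, but with H2BC12 among them.

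**Figure D1:**
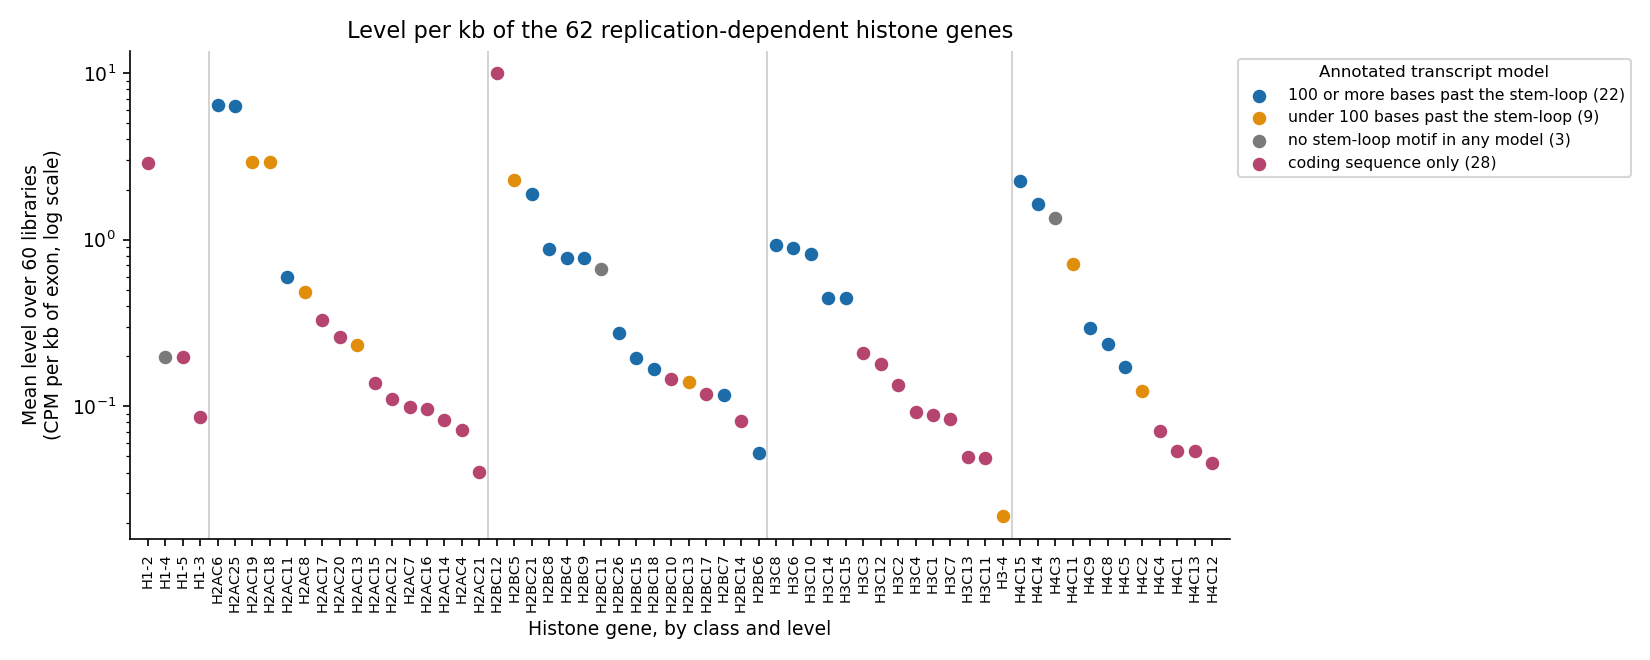
Mean level over 60 libraries in CPM per kb of exon (log axis) of each of the 62 histone genes, ordered by class and level and coloured by the kind of transcript model. In every class the levels fall by more than an order of magnitude from the first gene to the last, and most genes at the low end are annotated as coding sequence only.

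Copies that are nearly identical cannot be told apart by these counts. H3C14 and H3C15 had the same value in all 60 libraries. H4C14 and H4C15, and H2AC18 and H2AC19, share reads that the authors' program divided between them, and in 20 libraries either H2AC18 or H2AC19 was at 0. For these, sums of a pair are given too. H4C14 also overlaps H3C14 on the opposite strand, and H4C15 overlaps H3C15. The strand setting of the counting is not given in the sources used here, so reads of these partners may be mixed. H2BC12 had values that were not whole in 93.3% of libraries, so it too shared reads with other genes.

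The promoters, 250 bases before to 50 after the start in RefSeq on GRCh38.p14, could be matched for 57 members. The letters CCAAT, on either strand, were in 49 of 57 (86.0%), against 34.6% of 34943 promoters in the table. All matched H1, H2A, H2B and H3 promoters had them, but only 2 of 10 H4 promoters. TATAAA was in 66.7%, against 11.6% of all. The octamer ATTTGCAT was in 10 of 15 H2A and 12 of 16 H2B promoters and in none of the H1, H3 and H4 promoters, against 1.77% of all promoters. H2A and H2B genes often lie head to head: in 10 pairs the starts were at most 500 bases apart, facing away from each other. The space between H2BC4 (to the left, minus strand) and H2AC6 (to the right, plus strand), chr6:26123927-26124171, plus strand, is shown because these neighbours are compared below. Capitals mark these 3 motifs on either strand.

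H2BC4 to H2AC6: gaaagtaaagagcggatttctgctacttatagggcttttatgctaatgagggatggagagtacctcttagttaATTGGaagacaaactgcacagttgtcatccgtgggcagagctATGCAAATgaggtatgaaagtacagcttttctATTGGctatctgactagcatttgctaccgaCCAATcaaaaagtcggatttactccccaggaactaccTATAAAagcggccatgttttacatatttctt

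In these 245 bases CCAAT was found 3 times, the octamer once and the letters TATAAA once. The matches are descriptions of the letters and not binding sites.

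Of the 62 members, 29 passed the filter on low counts, and all 29 also had enough counts without the Coptidis high libraries. Each comparison covered 16608 genes in edgeR, and a gene was called below an adjusted p of 0.05. The other members are described only through sums. In bulk samples, fewer cells in S phase and less RNA per cell cannot be told apart.

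The summed level of all 62 members was highest at the high dose of Coptidis. It was 54.7 to 56.7 CPM at the low dose, 47.6 to 50.2 at the medium and 104.6 to 111.7 CPM at the high dose. All other libraries of the series had between 40.3 and 70.0 CPM. The lowest sums belonged to Scutellariae, with 57.0 to 57.7 CPM at the low dose, 42.4 to 46.8 at the medium and 40.3 to 44.2 CPM at the high dose. Wortmannin libraries had 67.9 to 70.0 CPM, against 56.0 to 62.9 CPM in vehicle libraries, with no overlap. The remaining extracts had 50.2 to 66.0 CPM.

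**Figure D2:**
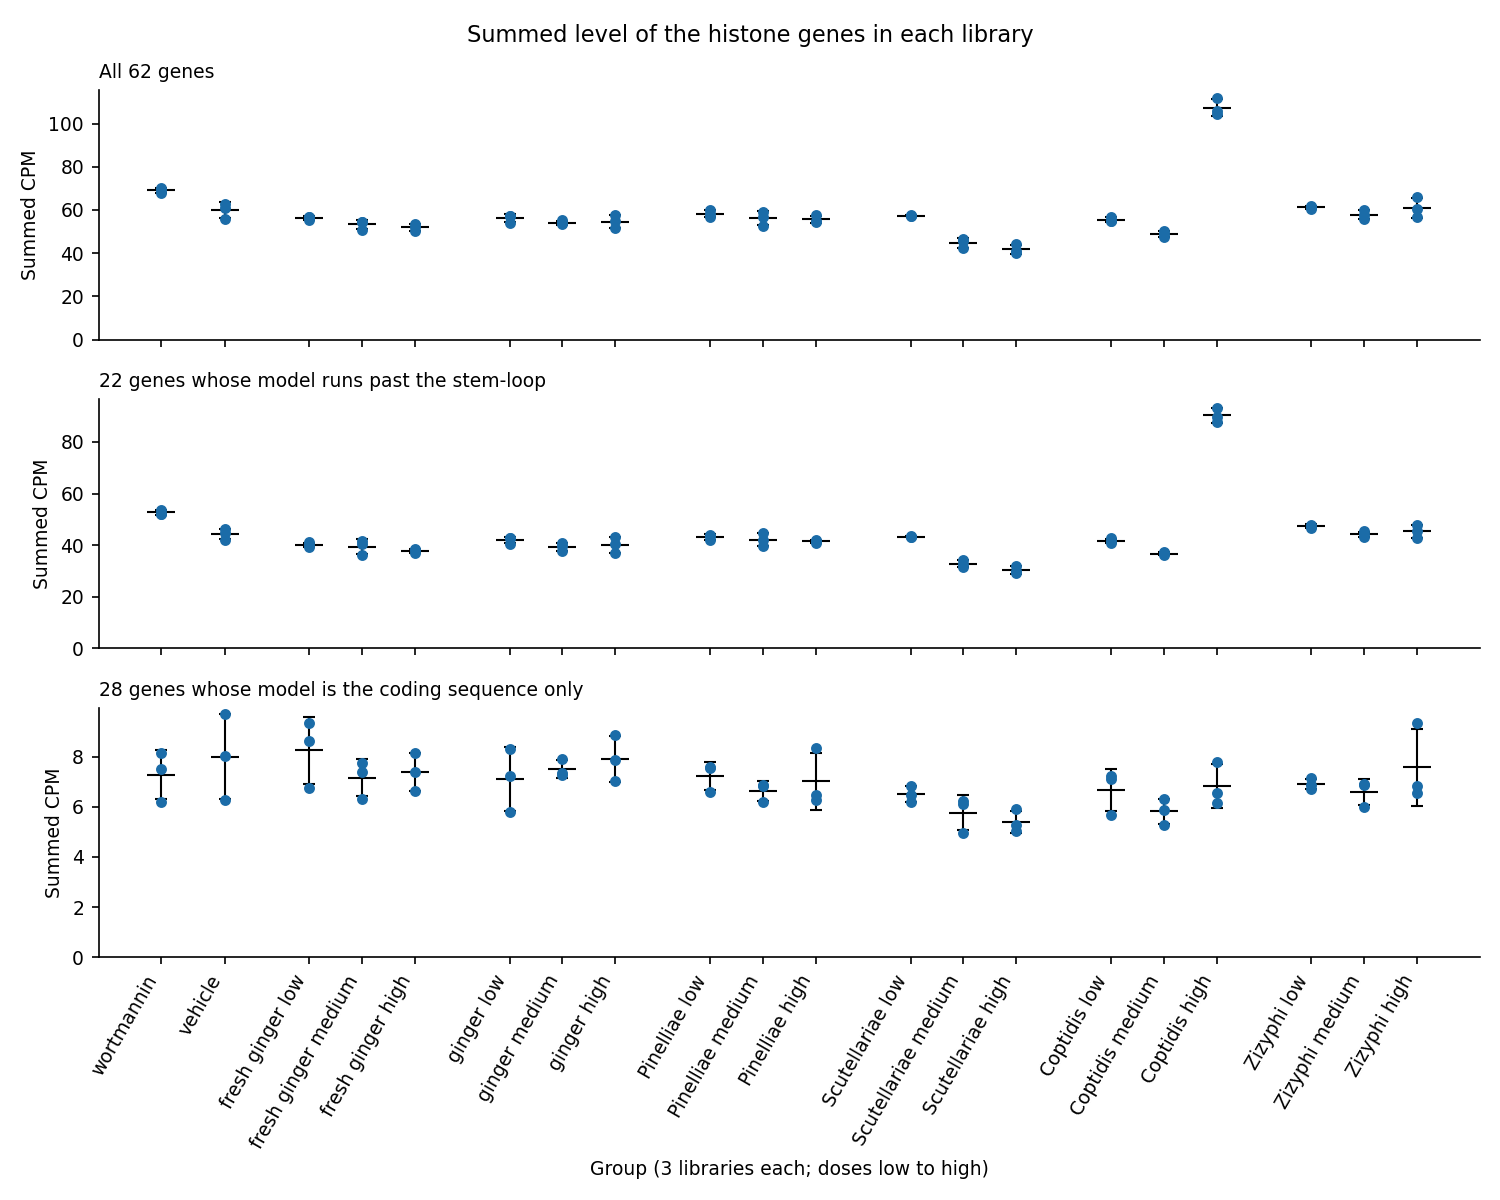
Summed CPM in each library (points), with the mean and SD of 3 libraries, for all 62 genes and for those with the longer models and with coding-sequence models, in wortmannin, vehicle and 6 extracts by dose. Coptidis high stands above all other groups in the upper panels (104.6 to 111.7 CPM for all 62) but not in the lowest panel.

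At the high dose of Coptidis Rhizoma, 12 of the 29 tested members rose and 3 fell relative to the low dose. The share called was near that of all genes: 51.7% of the members and 52.4% of the 16608 genes, so the count of calls says nothing particular about histone genes. Of all genes, 27.1% rose and 25.3% fell, while of the members 41.4% rose and 10.3% fell. The median log2 change of the tested members was 0.33, beside 0.00 over all genes tested.

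The largest change belonged to the chromosome 1 cluster. H4C15 (chromosome 1, 149854045 to 149861210, GRCh38) had 13.02, 12.4 and 18.3 CPM in Coptidis high libraries and 2.16, 2.62 and 2.42 CPM in low dose libraries. Its log2 change was 2.51 ± 0.27 (approximate SE, edgeR adjusted p = 6.27e-11). Since its reads are divided with H4C14, the sum of both is the firmer value: 20.7, 21.9 and 22.6 CPM at the high dose against 7.71, 7.43 and 6.31 CPM at the low dose, a log2 change of 1.51 ± 0.11 (edgeR adjusted p = 2.41e-17). The groups did not overlap in either form, and both genes encode the same kind of protein, the core histone H4. H4C14 alone, with a log2 change of 0.50, was not called (edgeR adjusted p = 0.202). The chromosome 6 gene H4C8 had 1.35, 1.39 and 1.27 CPM at the high dose against 0.559, 0.446 and 0.390 CPM at the low dose. Its log2 change was 1.42 ± 0.28 (edgeR adjusted p = 3.16e-05). It is a separate locus with little sharing of reads, and its groups did not overlap.

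Of the H3 genes, H3C14 and H3C15 rose together because their values are the same. Each had 3.64, 3.45 and 3.52 CPM at the high dose against 0.698, 0.624 and 0.623 CPM at the low dose, and the summed pair had a log2 change of 2.35 ± 0.21 (edgeR adjusted p = 1.85e-13). They count as 2 of the 12 members that rose, but hold 1 set of reads. Their partners on the other strand are H4C15 and H4C14, so these rises are not independent of those of H4. H3C6 lies elsewhere, on chromosome 6, and had 5.88, 4.17 and 5.43 CPM at the high dose against 2.30, 2.20 and 2.26 CPM at the low dose, with a log2 change of 1.10 ± 0.16 (edgeR adjusted p = 5.39e-08). H3C8, also on chromosome 6, went the other way. It had 1.87, 1.46 and 1.55 CPM at the high dose against 2.27, 2.23 and 2.45 CPM at the low dose, a log2 change of -0.60 ± 0.18 (edgeR adjusted p = 3.29e-03). Both H3C6 and H3C8 have a model that runs past the stem-loop, so members with this kind of model moved in both directions.

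Among the H2A and H2B genes, H2AC6 had the most counts and the smallest p. Its level was 30.1, 29.1 and 27.4 CPM at the high dose against 9.64, 9.81 and 9.89 CPM at the low dose. The log2 change was 1.47 ± 0.09 (edgeR adjusted p = 8.63e-20), and no library outside Coptidis high exceeded 16.1 CPM. H2BC4, its head-to-head neighbour across the 245 bases printed above, had 0.467, 0.375 and 0.423 CPM at the high dose against 0.663, 0.684 and 0.740 CPM at the low dose. Its log2 change was -0.81 ± 0.33 (edgeR adjusted p = 0.0375). Between the low and the high dose, the neighbours that share this promoter region thus moved in opposite directions. They did not do so at the same step. H2BC4 had 0.431, 0.691 and 0.230 CPM at the medium dose, a range that spans its high dose libraries. H2AC6 was below its low dose values at the medium dose and rose only after it. H2BC4 is below the level set for naming genes and was chosen after its values were seen.

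H2BC12, the highest gene per kb, also fell: it had 3.13, 2.48 and 2.19 CPM at the high dose against 3.35, 3.81 and 4.01 CPM at the low dose, a log2 change of -0.62 ± 0.19 (edgeR adjusted p = 5.06e-03). H2BC18, on chromosome 1, had 1.21, 1.01 and 1.198 CPM at the high dose against 0.628, 0.327 and 0.623 CPM at the low dose, a log2 change of 1.04 ± 0.26 (edgeR adjusted p = 6.92e-04). Smaller rises were called for H2BC26 (log2 change 0.69), H2AC11 (0.53), H2BC21 (0.42) and H2AC25 (0.33). H1-2, a linker histone, which binds DNA between nucleosomes, had 3.59, 2.93 and 2.71 CPM at the high dose against 1.82, 1.81 and 1.52 CPM at the low dose, with a log2 change of 0.74 ± 0.20 (edgeR adjusted p = 1.82e-03). It was the only H1 gene tested. The pair H2AC18 and H2AC19 summed to 6.49, 5.10 and 5.96 CPM at the high dose against 2.90, 2.94 and 2.73 CPM at the low dose. The sum rose by a log2 change of 0.94 ± 0.14 (edgeR adjusted p = 1.29e-07), whereas neither gene alone was called.

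**Figure D3:**
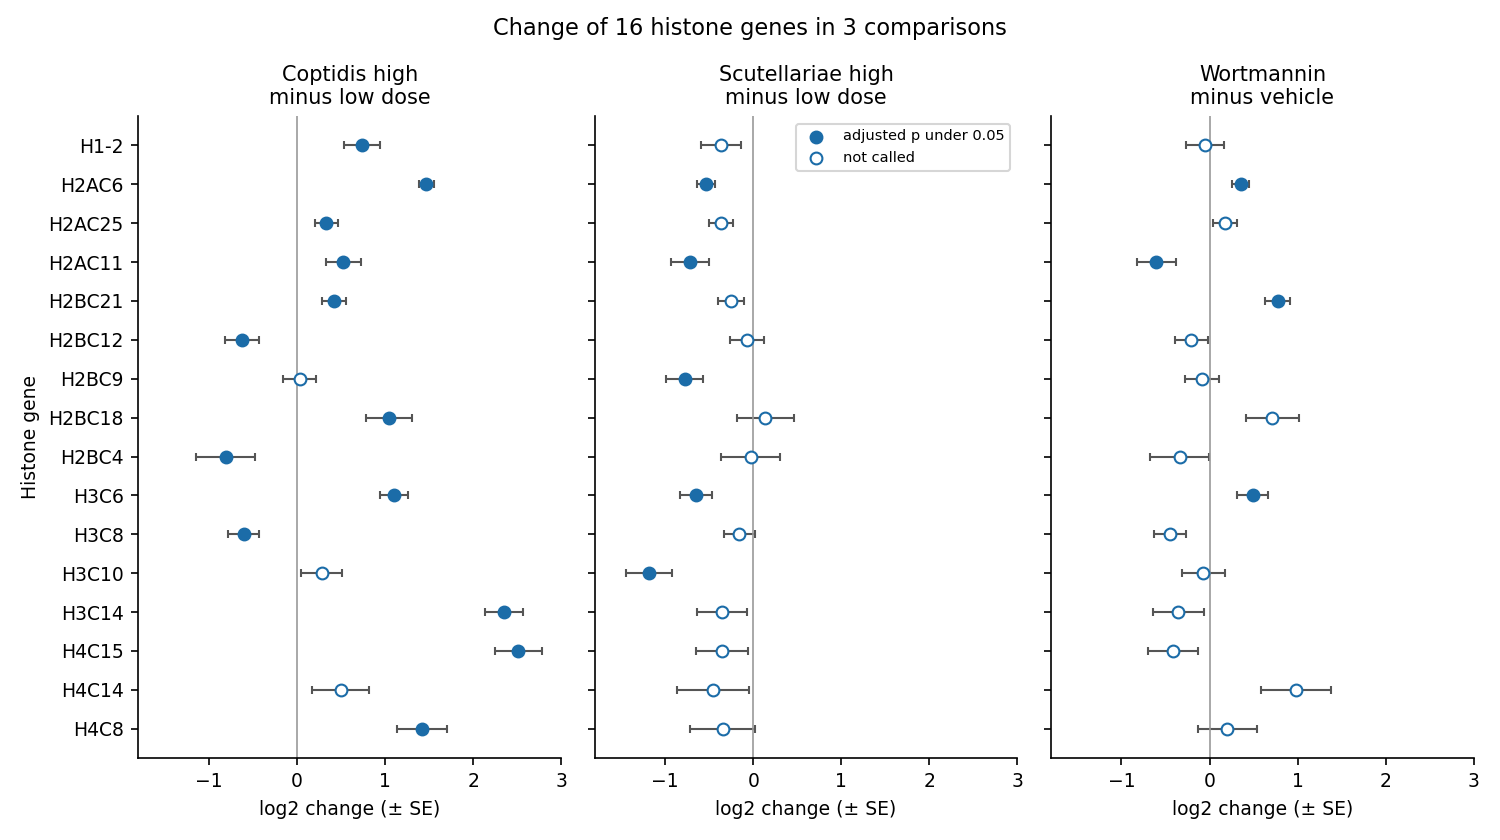
log2 change (± approximate SE) of 16 histone genes for Coptidis high against low dose, Scutellariae high against low dose and wortmannin against vehicle. Filled points have an adjusted p under 0.05. H2AC6 is filled in all panels, right of 0 for Coptidis (1.47) and wortmannin (0.35) and left of 0 for Scutellariae (-0.54).

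By kind of model, 11 of the 20 tested members that run past the stem-loop rose at the high dose of Coptidis and 2 fell. Of all genes, 27.1% rose and 25.3% fell. H3C14 and H3C15, which hold the same reads, are both among the 11. Whether the kinds of model differed was not tested. The 5 tested members whose model ends within 100 bases of the stem-loop were not called, though H2AC18 and H2AC19, which rose as a sum, belong to these. The summed CPM of all 22 genes with longer models was 87.9 to 93.3 at the high dose against 40.9 to 42.6 CPM at the low dose. For the 9 genes with such shorter models, of which 3 hold AATAAA as well, it was 8.52 to 9.66 against 5.38 to 6.19 CPM. For the 28 genes with coding-sequence models it was 6.13 to 7.79 against 5.69 to 7.21 CPM, and the libraries overlapped. Most of this last sum was H2BC12 and H1-2 (3.82 and 1.86 of 6.98 CPM on average over the series). Of these H2BC12 fell and H1-2 rose, so the sum does not show that single genes were unchanged. The sum of CPM in a group rests on few genes, in the longer models foremost H2AC6. Reads of a coding-sequence model cannot include a downstream part, so the kinds of model also differ in what they count.

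The rise lay between the medium and the high dose. High against medium dose called 13 members, all higher (44.8%, against 46.5% of all genes, 24.4% higher and 22.2% lower), with H2AC6 at a log2 change of 1.62 ± 0.09 (edgeR adjusted p = 1.53e-20). Medium against low dose called 0 of 29 members with edgeR (3 at an unadjusted p under 0.05), against 1.3% of all genes. H2AC6 had 8.62, 8.86 and 8.43 CPM at the medium dose, which is below its low dose values. The top dose was set by the study as the one that inhibited the cells by 20%.

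Relative to vehicle, in another set, 9 members rose and 3 fell at the high dose of Coptidis (41.4% of the members, against 53.8% of all genes, 26.6% higher and 27.1% lower). H2AC6 had 11.7, 10.4 and 10.0 CPM in vehicle libraries, all below the Coptidis high libraries, and a log2 change of 1.35 ± 0.09 (edgeR adjusted p = 3.26e-18). H4C14 was called here, with a log2 change of 1.66 ± 0.37 (edgeR adjusted p = 2.03e-04). H2BC12, H3C8 and H2BC4 fell, with log2 changes of -0.86, -0.66 and -0.94. These comparisons share the Coptidis high libraries with those above.

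Coptidis and Zizyphi lie in 1 set, so the change between high and low dose could be set against the same change in Zizyphi. The difference between the changes was called for 12 of 29 members (41.4%, against 41.4% of all genes, 20.4% above 0 and 21.1% below), 9 above 0 and 3 below. For H2AC6 it was 1.43 ± 0.13 on the log2 scale (edgeR adjusted p = 4.19e-13) and for H3C6 1.12 ± 0.23 (edgeR adjusted p = 9.45e-05). Zizyphi high libraries had 12.03, 10.5 and 12.2 CPM of H2AC6, and its low dose libraries 11.9, 10.6 and 12.6 CPM. High and low dose libraries of Zizyphi overlapped for this gene.

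**Figure D4:**
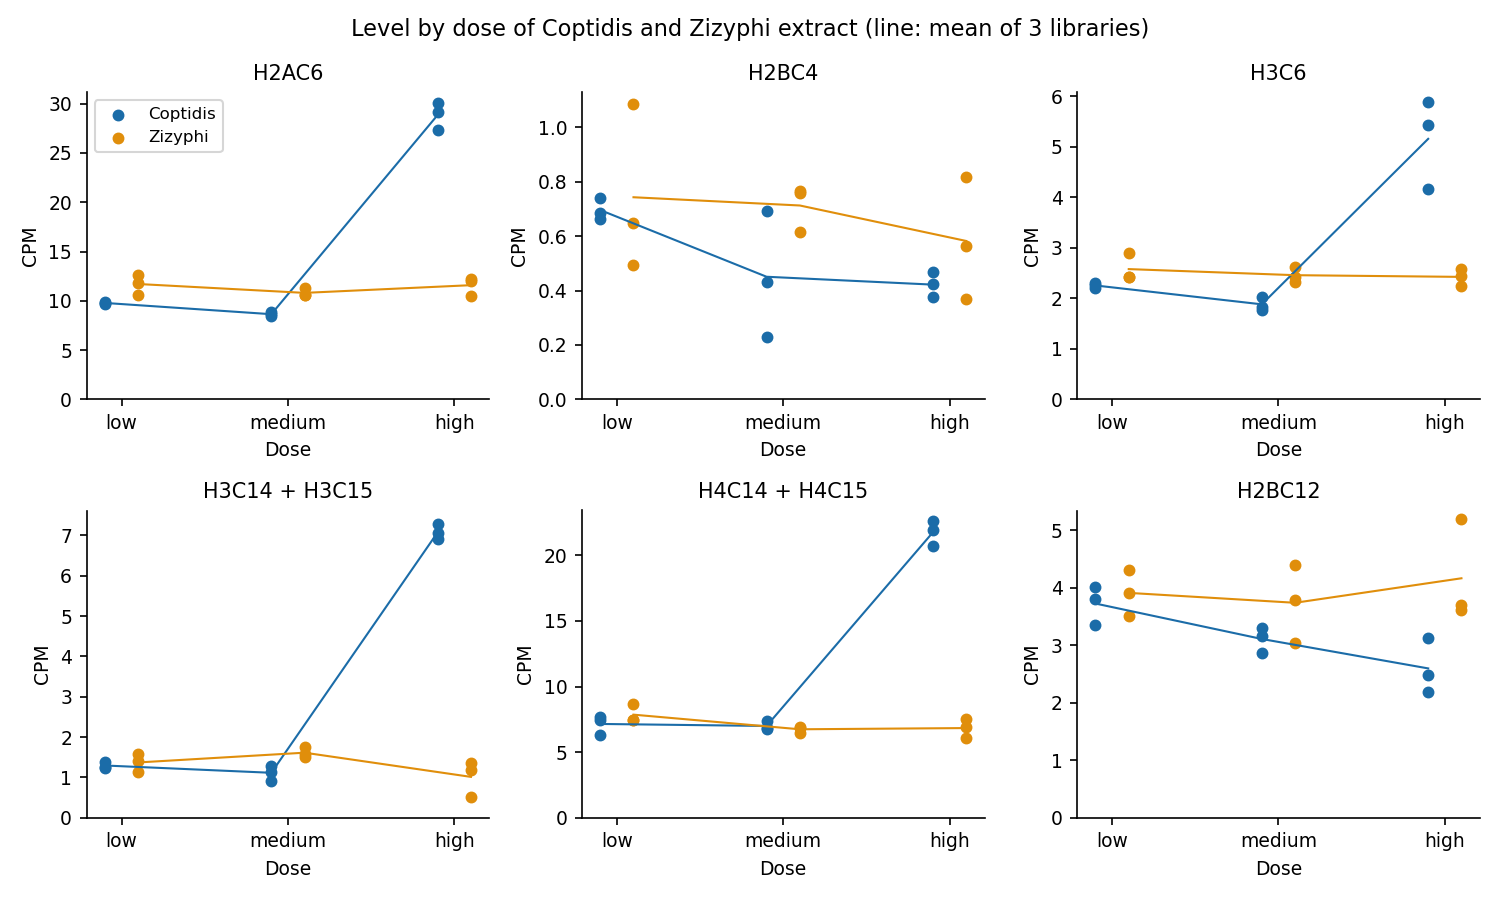
CPM in each library at the low, medium and high dose of Coptidis (11.6, 58 and 290 µg/mL) and Zizyphi (20, 100 and 500 µg/mL) for H2AC6, its neighbour H2BC4, H3C6, 2 summed pairs and H2BC12. H2AC6, H3C6 and both pairs stand higher at Coptidis high than in any other library shown, and H2BC12 does not.

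Genes of DNA synthesis moved the other way at the high dose of Coptidis. Of 35 DNA replication genes, 0 rose and 30 fell relative to the low dose, with a median log2 change of -0.62. MCM4, a subunit of the replicative helicase, had 157.7, 156.3 and 159.7 CPM at the high dose against 323.6, 304.6 and 309.8 CPM at the low dose. LIG1, which joins the fragments of the lagging strand, had a log2 change of -1.10 ± 0.05 (edgeR adjusted p = 1.08e-23), and ORC1, a subunit of the origin recognition complex, -1.21 ± 0.07 (edgeR adjusted p = 2.4e-21). Of 21 mitosis genes, 0 rose and 18 fell. Of 18 regulators of entry into S phase, 4 rose and 11 fell. The cyclin-dependent kinase inhibitor CDKN1A was among those that rose, with a log2 change of 1.80 ± 0.08 (edgeR adjusted p = 4.21e-26). The cyclin CCNE2 was among those that fell, at -1.21 ± 0.11 (edgeR adjusted p = 9.91e-14).

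Factors of histone supply were mixed. Of 17 genes on this list, which is not limited to makers of histone messages, 5 rose and 8 fell. SLBP, the stem-loop binding protein, had 79.9, 70.0 and 76.6 CPM at the high dose against 94.0, 98.3 and 92.9 CPM at the low dose, a log2 change of -0.42 ± 0.08 (edgeR adjusted p = 3.16e-05). NPAT fell by 0.35 ± 0.09 on the log2 scale (edgeR adjusted p = 5.95e-04), and CASP8AP2, a partner of NPAT in histone expression, by 0.49 ± 0.09 (edgeR adjusted p = 1.95e-05). HINFP, a transcription factor of H4 genes, rose by 0.48 ± 0.07 (edgeR adjusted p = 2.48e-08). Of 16 histone chaperones, 4 rose and 9 fell. NASP, which carries H1 and H3-H4, fell by 0.62 ± 0.04 on the log2 scale (edgeR adjusted p = 7.86e-18). ASF1A, which hands H3-H4 to assembly factors, rose by 0.58 ± 0.07, but its paralog ASF1B fell by 0.57 ± 0.06 (edgeR adjusted p = 1.25e-09 and 1.33e-10).

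Of 12 tested genes on the list of replication-independent variants, 2 rose and 5 fell, beside 27.1% and 25.3% of all genes. The list also holds H4C16, which is named like the H4 members but lies outside their clusters. H2AX, the variant phosphorylated at DNA breaks, fell by 0.53 ± 0.10 (edgeR adjusted p = 6.54e-06).

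**Figure D5:**
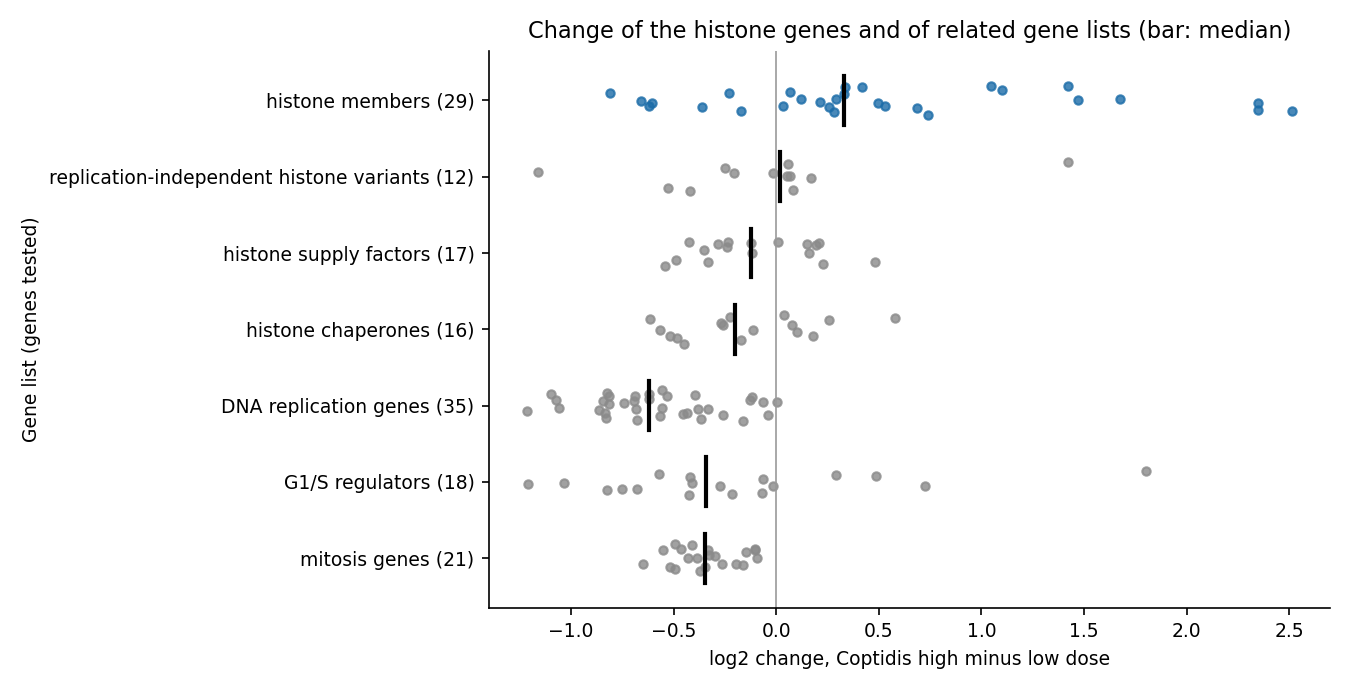
log2 change at Coptidis high against low dose of each tested gene (points) among the 29 histone members and 6 related lists, with the list's median (black bar). The median is 0.33 for the histone members and -0.62 for the 35 DNA replication genes, of which 0 rose.

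Other values moved with these changes. At the high dose of Coptidis the 15 RNAs without a poly(A) tail summed to 11.9, 13.7 and 10.0 CPM, against 242, 15.0 and 13.3 CPM at the low dose. Low dose replicate 1 stood apart in these, with 160.3 CPM of RN7SL2. Without it, H2AC6 had a log2 change of 1.45 and H3C14 2.40, and 14 members and 8031 of 16862 genes were called. HT29 cells showed epithelial markers at unequal levels, with EPCAM at a mean of 508 CPM over the series and KRT8 at 6399 CPM. CDX1, GPA33, CDX2 and CEACAM5 were far lower, at means of 1.12, 4.61, 5.89 and 6.69 CPM. The 12 markers of colon epithelium summed to 11890, 11750 and 11090 CPM at Coptidis high, against 11650, 12300 and 12110 CPM at the low dose, a sum made up mostly of KRT8 and KRT18. Single markers moved in both directions: 3 rose and 6 fell. GPA33 (log2 change -2.31), CEACAM5 (-1.60) and KRT19 (-0.55) were among those that fell, and LGALS4 (0.34) and KRT20 (0.30) among those that rose. Among the leukocyte markers, PTPRC and CD3E averaged 0.0208 and 0.0018 CPM over the series, while LYZ averaged 1759, CD68 7.85 and ITGAM 1.62 CPM. The leukocyte sum was 1511 to 1627 CPM at Coptidis high, against 1610 to 1843 CPM at the low dose, and of the 3 tested LYZ and ITGAM fell. Of the 8 fibroblast and endothelial markers, COL1A1 averaged 1.28 and PECAM1 1.68 CPM, and the others 0.0010 to 0.0397 CPM. PECAM1 fell at the high dose and COL1A1 was not called, and the list summed to 2.29 to 2.51 CPM at the high dose against 2.41 to 3.15 CPM at the low dose. The part of these 3 lists in the histone values was not tested.

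At the high dose of Scutellariae Radix, 0 of 29 tested members rose and 6 fell relative to the low dose, or 20.7% of the members, against 16.3% of all genes called, 7.92% higher and 8.42% lower. The median log2 change of the members was -0.45, beside -0.01 over all genes tested, and 26 of 29 were below 0. Leaving out high replicate 1 or low replicate 3 left 3 members called, beside 1992 and 2035 of all genes. With the 6 libraries compared alone in the fit, 7 of 25 members and 4141 of 15056 genes were called.

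H2AC6 had 6.85, 6.83 and 6.05 CPM at the high dose against 10.2, 10.4 and 9.34 CPM at the low dose, a log2 change of -0.54 ± 0.10 (edgeR adjusted p = 7.7e-05). H3C10 had 0.635, 0.362 and 0.488 CPM at the high dose against 1.14, 1.25 and 1.23 CPM at the low dose, a log2 change of -1.18 ± 0.26 (edgeR adjusted p = 5.93e-04). For both, all high dose libraries lay below all low dose libraries. H3C6 had 1.24, 2.28 and 1.56 CPM at the high dose against 2.46, 2.68 and 2.90 CPM at the low dose (log2 change -0.65 ± 0.18, edgeR adjusted p = 7.3e-03). H2BC9 and H2AC11, genes for the core histones H2B and H2A, fell by 0.78 ± 0.21 and 0.72 ± 0.22 on the log2 scale (edgeR adjusted p = 5.28e-03 and 0.0151). H2BC11, head to head with H2AC11, fell by 0.90 ± 0.31 (edgeR adjusted p = 0.037). It is below the level set for naming genes and was chosen after its values were seen. H3C6 lost its call without high replicate 1 or low replicate 3, and H2AC11 in 4 of 13 alternatives.

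H3C6 and H2AC6 were already lower at the medium dose. Medium against low dose called these 2 members (6.90%, against 3.35% of all genes), at log2 changes of -0.63 ± 0.18 for H3C6 and -0.39 ± 0.10 for H2AC6 (edgeR adjusted p = 0.0312 and 0.0138). H2AC6 had 7.37, 7.52 and 7.21 CPM at the medium dose, all below its low dose libraries. High against medium dose called 1 member, H2BC11 (3.45%, against 5.09% of all genes).

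Against vehicle, 8 members were lower at the high dose of Scutellariae and 0 higher (27.6%, against 20.3% of all genes called, 9.72% higher and 10.6% lower). H2AC6 (log2 change -0.69), H2BC9 (-0.88), H3C10 (-1.08) and H2AC11 (-0.74) were called here as in the comparison of doses, which shares the high dose libraries. H2AC25, H2BC12, H2BC5 and H2AC8 were called here alone, at log2 changes of -0.42, -0.53, -0.55 and -1.54. H2AC8 had very low levels, 0.234, 0.0 and 0.0976 CPM at the high dose against 0.438, 0.400 and 0.277 CPM in vehicle libraries. It is below the level set for naming genes and was chosen after its values were seen. The count was 5 without the 4 libraries that stood apart from the rest, among them vehicle replicate 1, and 4, 3 and 5 without vehicle replicate 1, vehicle replicate 2 and Scutellariae high replicate 3. Of all genes, 3279, 2344, 2823 and 2580 were called in these fits. The summed pair H4C14 and H4C15 fell against the low dose as well (log2 change -0.39 ± 0.12, edgeR adjusted p = 0.0217).

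DNA synthesis genes were not lower as a list at the high dose of Scutellariae. Of 35 DNA replication genes 7 rose and 2 fell relative to the low dose, with a median log2 change of 0.03. CDC6, which loads the helicase at origins, had 103.7, 102.3 and 103.7 CPM at the high dose against 84.3, 85.1 and 78.6 CPM at the low dose. RRM2, a subunit of ribonucleotide reductase, rose by a log2 change of 0.30 ± 0.06 (edgeR adjusted p = 9.79e-05). Of 18 regulators of entry into S phase 5 rose, including CDKN1A at 1.05 ± 0.08 (edgeR adjusted p = 3.33e-15). Neither SLBP (log2 change 0.03, edgeR adjusted p = 0.867) nor NPAT (0.03, edgeR adjusted p = 0.903) was called. POU2AF1, a coactivator known from B cells that works through the octamer factors, had 1.47, 1.81 and 1.497 CPM at the high dose against 4.01, 5.84 and 4.34 CPM at the low dose. Its log2 change was -1.53 ± 0.14 (edgeR adjusted p = 4.03e-12), and its part in the histone values was not tested. Of 12 tested genes on the list of variants 4 fell and 0 rose. The RNAs without a poly(A) tail summed to 13.9, 60.9 and 48.7 CPM at the high dose, against 42.1, 23.4 and 77.9 CPM at the low dose, and overlapped.

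The difference between the dose changes of Scutellariae and of Pinelliae, which is in the same set, was called for 0 of 29 members with edgeR (7 at an unadjusted p under 0.05, 0 with DESeq2), against 6.32% of all genes. The fall at the high dose of Scutellariae is thus not shown to differ from the change with Pinelliae.

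With wortmannin, 3 of 29 tested members were higher and 1 lower than in vehicle (13.8%, against 20.6% of all genes, 9.72% higher and 10.8% lower). The background rests in part on 1 library: without vehicle replicate 1 edgeR called 2109 of 16902 genes, against 3414 of 16608 with it, and still 4 members. The median log2 change of the members was -0.14, beside 0.01 over all genes tested.

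H2BC21, on chromosome 1, was the member with the smallest p. It had 6.97, 7.49 and 7.36 CPM in wortmannin libraries against 3.94, 3.57 and 4.90 CPM in vehicle libraries, a log2 change of 0.77 ± 0.14 (edgeR adjusted p = 3.48e-05). No library outside the wortmannin group was above 6.53 CPM. H2AC6 had 16.1, 13.5 and 12.9 CPM in wortmannin libraries against 11.7, 10.4 and 10.0 CPM in vehicle libraries, a log2 change of 0.35 ± 0.10 (edgeR adjusted p = 5.53e-03). It was not called without wortmannin replicate 1 (edgeR adjusted p = 0.0794). H3C6 had 3.36, 3.26 and 3.00 CPM in wortmannin libraries against 2.30, 2.23 and 2.08 CPM in vehicle libraries (log2 change 0.49 ± 0.17, edgeR adjusted p = 0.0376). H2AC11 had 1.02 CPM in each wortmannin library against 1.204, 1.70 and 1.53 CPM in vehicle libraries (log2 change -0.60 ± 0.22, edgeR adjusted p = 0.042). Calls of H3C6 and H2AC11 are weak: they were lost in 6 and 8 of 13 alternatives, and leaving out wortmannin replicate 1 left 1 called member, H2BC21. Without that library, 2575 of all genes were called.

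Around these genes, 20 of 21 mitosis genes fell with wortmannin and 0 rose. PLK1, a mitotic kinase, had 104.3, 106.1 and 103.4 CPM in wortmannin libraries against 187.4, 176.3 and 182.8 CPM in vehicle libraries. Of 12 tested genes on the list of variants 8 fell and 0 rose. CENPA, the histone H3 of centromeres, had a log2 change of -0.89 ± 0.08 (edgeR adjusted p = 1.21e-12) and H2AZ1 of -0.58 ± 0.09 (edgeR adjusted p = 1.45e-06). Of 16 chaperones 8 fell and 0 rose. DNA replication genes were mixed, with 4 higher and 7 lower of 35. Neither SLBP (log2 change -0.06) nor NPAT (0.18) was called (edgeR adjusted p = 0.692 and 0.144). The 6 leukocyte markers summed to 2424 to 2485 CPM in wortmannin libraries, against 1752 to 1884 CPM in vehicle libraries. Most of this sum was LYZ, which averaged 1759 CPM over the series, and its part in the histone values was not tested.

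In the remaining extracts no member was called, high against low dose or against vehicle. High against low dose gave 0 members with edgeR and 0 with DESeq2 for fresh ginger, ginger, Pinelliae and Zizyphi. At an unadjusted p under 0.05 there were 1, 1, 1 and 2 of 29 members. Of all genes, 1.79%, 0.915%, 0.0421% and 0.0482% were called with edgeR, that is 298, 152, 7 and 8 genes, whereas DESeq2 called 396, 189, 6 and 1185 genes. These backgrounds depend on single libraries. For Zizyphi edgeR called 4375 genes without high replicate 1 and 1603 without high replicate 2, with 1 and 0 members among them, and 2 to 5 genes when any other single library of the 6 was left out. For fresh ginger it called 1305 genes without low replicate 2, with 0 members, and 116 to 300 when any other of its 6 libraries was left out. For ginger it called 63 to 154 genes and for Pinelliae 5 to 8, with each library left out in turn. With only the 6 libraries compared in the fit, 23, 34, 10 and 0 genes were called. Against vehicle, edgeR and DESeq2 gave 0 members for these extracts too, with 3, 2, 2 and 0 members at an unadjusted p under 0.05 and 2.08%, 0.789%, 0.187% and 0.0181% of all genes called with edgeR. Those are 346, 131, 31 and 3 genes, and DESeq2 called 548, 164, 69 and 12. With each library left out in turn, edgeR called 128 to 449, 66 to 93, 12 to 55 and 0 to 17 genes. The median log2 change of the members between high and low dose was -0.20, -0.01, -0.02 and 0.10 for the 4 extracts. The difference between the dose changes of ginger and fresh ginger was called for 0 members by edgeR and by DESeq2 (0 at an unadjusted p under 0.05), and for 0 of all genes. Without fresh ginger low replicate 2, edgeR called 1053 genes for this difference and still 0 members.

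The 24 comparisons that involve a medium dose, or a low dose against vehicle, called 18 members in all with edgeR and 17 with DESeq2. Apart from the 13 of Coptidis high against medium dose, these were members that fell with Scutellariae. Scutellariae medium dose against vehicle called H2AC6 and H2BC21 (6.90%, against 6.64% of all genes), at log2 changes of -0.55 and -0.49. In the other comparisons of this kind edgeR called 0 members, with 0 to 6 at an unadjusted p under 0.05. Of all genes, 6.32% were called for Coptidis medium dose against vehicle and 0.397% for its low dose against vehicle. For Scutellariae low dose against vehicle it was 0.126%. For ginger it was 0.012% at medium dose against vehicle and 0.247% for high against medium dose, and for fresh ginger 0.458% for high against medium dose. For Pinelliae it was 0.0482% at medium dose against vehicle, 0.012% at low dose against vehicle and 0.0361% for high against medium dose. For Zizyphi it was 0.012% at low dose against vehicle and 0.0301% for high against medium dose.

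Over the 20 groups, 15 of the 62 members had their highest mean at Coptidis high. In 8 of these the 3 Coptidis high libraries lay above all 57 others: H2AC6, H4C15, H3C6, H3C14, H3C15, H2BC26, H2BC18 and H4C8. Of these, H3C14 and H3C15 hold the same reads. How many of all genes stood apart there was not counted, so these counts say nothing particular about histone genes. High against low dose of Coptidis called 52.4% of all genes. H2BC12 and H3C8 had their lowest group mean there instead, 2.60 and 1.63 CPM. Of the most abundant members, H2AC6, H2AC25, H3C6, H2BC5 and H1-2 had their lowest mean at Scutellariae high, where H2AC6 averaged 6.58 ± 0.46 CPM (SD, n = 3) and H3C6 1.69 ± 0.53 CPM (SD, n = 3).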

How the data were processed

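RNA of 60 HT29 libraries was sequenced as 100 bp paired reads, per the labels' protocols. Per the submitters' processing notes, RSEM 1.3.3, STAR 2.7.3a, Trim Galore 0.6.5 and FastQC 0.11.9 were used, with the build hg38; the annotation release is not given in the sources used here. The authors deposited RSEM expected counts per gene, of which 8.755% were not whole, and these were rounded. A further 210 columns were not used. One row is not reported here.

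Genes were tested with edgeR 4.0.16 (R 4.3.3, limma 3.58.1; quasi-likelihood, robust, TMM scaling, filterByExpr at about 0.428 CPM in 3 libraries) in a single fit over 60 libraries with a coefficient for each of 20 groups, leaving 40 residual degrees of freedom. Benjamini-Hochberg adjustment ran over 16608 genes in each of 40 comparisons. CPM are counts scaled to a library total of 1000000. The SE was derived from the log2 change and its F statistic and is approximate. DESeq2 1.42.0, its size factors, no filter, a replicate block, the compared libraries alone, summed near-identical pairs and each library left out were alternatives. The fit was tested on simulated data.

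Named members were the 2 most abundant of each class and, per comparison, up to 8 per direction by p among called members with at least 1 CPM in the higher group and no overlap of libraries (for differences between dose changes, called members with at least 1 CPM in any group). From each list of related genes, up to 4 were eligible by p, with SLBP and NPAT. Other genes named were chosen after their values were seen. Members and lists were chosen with earlier results of these data known. Positions and transcript models are from GENCODE 29, promoters from RefSeq.

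Same-numbered libraries did not deviate together: correlations were -0.37 to 0.214 over 13 comparisons, and in 0 of these were all above 0.1.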

Additional observations from a re-analysis of the deposited data

Results flagged for a closer look

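For 12 histone genes the change between high and low dose differed between Coptidis and Zizyphi, by edgeR's test of that difference with adjustment over all genes. That was 41.4% of the 29 members tested, and 41.4% of all 16608 genes were called too. The count thus says nothing particular about histone genes. On the log2 scale, the Coptidis change exceeded the Zizyphi change by 1.43 for H2AC6, 2.29 for H4C15, 1.44 for H4C14 and 1.68 for H4C8. Since H4C14 and H4C15 share reads, their sum is the firmer value, at 1.65 ± 0.16 (edgeR adjusted p = 2.48e-12). In Coptidis, H4C14 alone was not called between high and low dose. Its mean in Zizyphi was 3.17 CPM at the low dose and 1.55 CPM at the high dose. H4C14 and H4C15 also overlap H3C14 and H3C15, respectively, on the opposite strand. The excess was 2.71 for H3C14 and, from the same reads, 2.71 for H3C15. It was 1.12 for H3C6, 1.78 for H2BC18 and 0.67 for H2BC21. The difference was negative for H2BC12, at -0.77, for H3C8, at -0.71, and for H4C3, at -1.52. H4C3 was chosen after its values were seen, since it had under 1 CPM in every group. H2BC12 lost its call in 4 of 19 alternatives and H3C8 in 3 of 19. The top doses differ, 290 µg/mL for Coptidis and 500 µg/mL for Zizyphi.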

How the results depend on the processing

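Direction was followed for the named members only, and none was reversed in the alternatives run. Except for differences between dose changes, these members were chosen for groups without overlap. Leaving out a library thus left little room for a reversal. Of the repeated counts of members called, 207 stayed near the count reported and 25 moved away from it. Of the single named genes, 404 repeats kept their call and 29 lost it. Without the filter on low counts, high against low dose called 1, 2, 1 and 3 members for fresh ginger, ginger, Pinelliae and Zizyphi. Of the 34683 genes tested in that setting, 559, 436, 89 and 1982 were called. Against vehicle it was 2, 2, 3 and 2 members, beside 1113, 242, 611 and 97 of all genes. For Scutellariae against Pinelliae 1 member and 945 of all genes were called, and for ginger against fresh ginger 1 member and 602 genes. The 24 comparisons with medium or low doses called 43 members in all, and calls among all genes were not counted for these. The cause of the added calls was not tested. Without the 4 libraries that stood apart, Scutellariae high against vehicle called 5 members and 3279 of 16908 genes.

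With each library left out in turn, the members called were 11 to 14 for Coptidis high against low dose, 11 to 14 against vehicle and 9 to 12 for Coptidis against Zizyphi. Of 16838 to 16910 genes tested, 7927 to 8051, 8116 to 8507 and 6268 to 7199 were called in these. The members called were 3 to 6 for Scutellariae high against low dose, 3 to 8 against vehicle and 1 to 4 for wortmannin. Of all genes, 1992 to 2318, 2344 to 3226 and 2109 to 3295 were called in these. There were 0 to 1 members for Scutellariae against Pinelliae, 0 to 1 for Zizyphi and 0 to 1 for fresh ginger against vehicle. Beside these, 799 to 1031, 2 to 4375 and 128 to 449 of all genes were called. Wortmannin called 2, 2 and 1 members without vehicle replicate 2, vehicle replicate 3 and wortmannin replicate 1. Of all genes, 2903, 3295 and 2575 were called there.

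Replicate numbers did not pair the libraries. With the replicate block 15 members were called for Coptidis high against low dose, 13 against vehicle, 6 and 8 for Scutellariae and 4 for wortmannin. In the same order, 8698, 8941, 2717, 3375 and 3399 of 16608 genes were called. Members with few counts limit these tests: 25 of 62 averaged under 0.1 CPM.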
